A study of Homo sapiens with 38 samples.

Results

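Culture in mTeSR for 8 days was compared with the naive state in 6 of the 38 libraries of the series. They were the 2 libraries of cells plated on Geltrex in mTeSR and collected at day 8, and the 4 libraries of naive cells taken at day 0 of the same experiment, 2 grown on serum coating and 2 on Geltrex. The libraries were chosen by their titles, and the naive libraries of the second experiment were left out. Every library came from Shef6, a single human embryonic stem cell line, adapted to plates coated with diluted fetal bovine serum before the experiment began.

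The naive groups were held in PXGL, which is N2B27 basal medium with a MEK inhibitor (PD0325901), a tankyrase inhibitor (XAV939), a PKC inhibitor (Gö6983) and the cytokine LIF. Their titles say PXGL but their library names say PXGLY, and the added letter is not explained in the sources used here. The study also gave naive cells a ROCK inhibitor after each passage, and whether it was present at collection is not given. For differentiation the cells were plated on Geltrex, a basement membrane extract, directly in mTeSR, with a ROCK inhibitor until day 1. mTeSR is a commercial medium for conventional human pluripotent stem cells and supplies FGF2 and a TGFβ family ligand. The inhibitors and LIF were thus withdrawn at the time the new factors were given, so their effects and those of time in culture cannot be told apart here. The study's legends call the replicates technical in most places and biological in another. The p-values measure the spread between replicate libraries over all 19 groups of the series, and that spread may be technical.

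Naive human pluripotent cells resemble the epiblast before implantation, and their culture depends on blocking MEK, the kinase that activates ERK. Primed cells resemble the epiblast after implantation, grow on FGF and Activin or TGFβ signals, and respond to germ layer cues. The passage between these states, called capacitation, takes place without loss of the shared pluripotency factors OCT4 and SOX2. The study reported NANOG, also shared, as downregulated on this exit, by RT-qPCR in another line, HPD06.

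The libraries held 3′ tag counts per gene, given here as CPM, each library scaled to the same effective total by the TMM method. The mTeSR day 8 libraries held 3534869 and 3677825 counts, and the naive libraries 4390955 to 5577221. A count of 3, the limit that a count of 0 allows, was worth 0.814 to 0.840 CPM in mTeSR day 8 and 0.541 to 0.673 CPM in the naive libraries, and covers counting error only. Across genes, Pearson's r between the replicates was 0.979 in mTeSR day 8, 0.981 on serum coating and 0.985 on Geltrex. Mitochondrial genes took 1.86 to 2.22% of the counts in mTeSR day 8 and 2.56 to 3.48% in the naive libraries, and the part of this difference in the results was not tested. The coatings of the naive cells differed in 8 of 16674 genes (0.048%), 4 higher (0.024%) and 4 lower (0.024%) on Geltrex, a count that ran from 0 to 146 with 1 library left out and was 106 with no filter on low counts. The mean of both naive groups was used. Naive values are listed in the order serum 1, serum 2, Geltrex 1, Geltrex 2.

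Of the 16674 genes tested, 4491 (26.9%) were called different at day 8 in mTeSR, 3031 higher (18.2%) and 1460 lower (8.76%). A gene was called when edgeR's quasi-likelihood test gave a Benjamini-Hochberg adjusted p under 0.05 and the change was above 2-fold. Large changes were mostly rises. Above 8-fold, 989 genes were higher and 206 lower, and above 32-fold the counts were 361 and 58. The genes called higher took 3.32 to 3.42% of all counts in the naive libraries and 12.3 to 13.0% in mTeSR day 8. The genes called lower went the other way, from 8.04 to 8.79% of the counts to 2.94 to 2.98%. The median log2 fold change over all genes tested was 0.01. A gene near 0 in naive cells could pass the filter on low counts only through other libraries in which it was higher, so counts and medians over the tested members of a list are descriptions. In bulk libraries, fewer cells expressing a gene and less RNA of it per cell cannot be told apart, for any gene below.

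**Figure D1:**
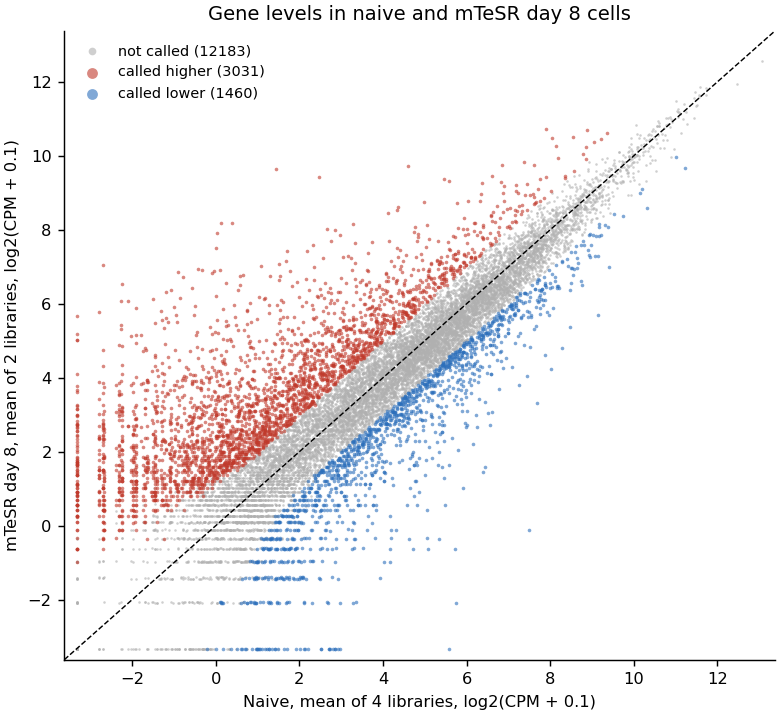
Mean level of each of the 16674 genes tested in the 4 naive libraries (x axis) against the 2 mTeSR day 8 libraries (y axis), both as log2(CPM + 0.1). The 3031 genes called higher lie above the diagonal and the 1460 called lower below it, and many of the former sit at the left edge, at or near 0 CPM in naive cells.

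The 12 largest rises were taken among genes averaging 20 CPM or more in the higher group, with no overlap of libraries, and the naive libraries barely held these genes. PTPRZ1 (chromosome 7, 121873089 to 122062036, from GENCODE v44 on hg38 as for each position given), a receptor tyrosine phosphatase, had 1 count in the 4 naive libraries together and stood at 128 and 139 CPM in mTeSR day 8 (count ratio 2545, 95% interval 456 to 100607). SFRP2 (chromosome 4, 153780591 to 153789083), a secreted WNT modulator, was at 0 in every naive library and at 43.4 and 58.2 CPM in mTeSR day 8, at least 75.5-fold higher. EDNRB, the endothelin receptor type B, was also at 0 in the naive libraries and rose to 30.9 and 33.3 CPM, at least 47.7-fold. In all 3 the naive libraries were under the limit of detection.

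NRK, a kinase gene on chromosome X, went from 0, 0.437, 0 and 0 CPM to 67.3 and 67.7 CPM (count ratio 645, 95% interval 178 to 5338). CCDC141 went from 0, 0.437, 0 and 0 to 40.7 and 38.9 CPM (count ratio 380.2, 95% interval 104 to 3155). The neuregulin receptor ERBB4 stood at 0, 0, 0.673 and 0 CPM in naive cells and at 52.4 and 65.8 CPM in mTeSR day 8 (count ratio 375, 95% interval 128 to 1828). NTS, which encodes the peptide neurotensin, went from 0, 0, 0 and 0.180 CPM to 61.6 and 47.3 CPM (count ratio 1042, 95% interval 186 to 41260.4). VIM, THY1, CER1, SPRY4 and DUSP4 complete the 12 largest rises and are described with their groups.

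The 12 largest falls were taken by the same rule, which leaves out genes under 20 CPM in naive cells, some of which fell by as much. ITGAM (chromosome 16, 31259967 to 31332892), which encodes the integrin alpha M chain best known from myeloid cells, stood at 48.9, 48.5, 45.1 and 48.4 CPM and had 0 counts in both mTeSR day 8 libraries, at least 56.8-fold lower. RGCC, a regulator of the cell cycle, fell from 70.6, 62.01, 35.5 and 44.2 to 0.543 and 0.560 CPM (log2 fold change -6.47 ± 0.44 SE, adjusted p 3.84e-14). ELF3, an ETS factor of epithelia, fell from 90.97, 93.7, 77.7 and 73.97 to 2.17 and 3.08 CPM, by 31.6-fold (adjusted p 1.25e-19). The naive values of both lie far above those in mTeSR.

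MAGEB2, a cancer-testis antigen gene on chromosome X, fell from 37.6, 39.3, 41.97 and 41.7 to 0.814 and 0.560 CPM, and the homeobox gene DMBX1 from 25.5, 27.5, 24.9 and 26.3 to 0.543 and 0.560 CPM. The others of the 12 largest falls were SPIC, FAM151A, OLAH, LIPH, AL121761.1, HLA-F and REEP1, with log2 fold changes from -8.34 (SPIC) to -4.94 (REEP1). OLAH and LIPH encode lipid hydrolases. OLAH stood at 27.4, 33.8, 34.6 and 37.9 CPM in naive cells and 1.09 and 0 CPM in mTeSR day 8, and LIPH at 26.6, 31.2, 38.4 and 35.5 CPM and 0.271 and 1.12 CPM. For both genes the day 8 values reach down to or near the limit of detection.

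Naive transcription factors were lower at day 8 with exceptions that went in both directions. Of the 13 tested, 7 were called lower and 1 higher (median log2 fold change -1.04, against 0.01 over all genes). KLF4 (chromosome 9, 107484852 to 107490482), a reprogramming factor, fell from 175, 151, 109 and 110.4 CPM to 18.2 and 20.4 CPM, by 6.92-fold (adjusted p 1.95e-15). TFCP2L1, a factor of the naive network, fell from 255, 277, 247 and 230.0 CPM to 46.2 and 56.8 CPM, by 4.89-fold (adjusted p 2.35e-17). KLF5 fell from 248, 256, 210.3 and 227 CPM to 69.5 and 66.9 CPM, by 3.44-fold. These factors dropped by clear steps but stayed above the limit of detection, whereas SPIC, at 49.97 to 56.99 CPM in naive cells, had 1 count in the mTeSR day 8 libraries together (count ratio of naive to mTeSR 388, 95% interval 69.6 to 15355).

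PRDM14, a repressor needed for germ cells and naive identity, fell from 36.3, 40.8, 32.5 and 40.2 to 16.02 and 20.4 CPM (log2 fold change -1.04 ± 0.20), a call that 4 of the 17 alternative analyses did not keep. TBX3 and VENTX were lower by less than 2-fold, at log2 fold changes of -0.61 and -0.65. TFAP2C, the AP-2 gamma factor of naive cells and trophoblast, stood at 321, 430.1, 463 and 465 CPM in naive cells and 404 and 455 CPM in mTeSR day 8, and the groups overlapped. ESRRB, a central factor of the mouse naive network, was the 1 member called higher, from 0, 0, 0.898 and 0.180 to 2.71 and 2.52 CPM, all low levels.

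Among 17 other naive genes, 12 were lower and 2 higher, with a median log2 fold change of -2.06. DNMT3L, a cofactor of the de novo DNA methyltransferases, fell from 359, 362, 365 and 337 CPM to 43.2 and 39.5 CPM (log2 fold change -3.10 ± 0.14, adjusted p 1.58e-18). KHDC1L fell from 479, 560.5, 662 and 578 CPM to 50.8 and 52.6 CPM. ALPG, an alkaline phosphatase, fell from 232, 249, 296 and 259 CPM to 16.6 and 20.99 CPM. In each of these both mTeSR values were far below the lowest naive value.

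Genes of the maternal complex and its NLRP partners, expressed in oocytes and early embryos, were split. OOEP fell from 48.7, 62.7, 62.2 and 67.5 to 11.4 and 15.7 CPM and NLRP7 from 2076, 2354, 2589.6 and 2498 to 756 and 873 CPM. KHDC3L stood at 251, 277, 295 and 298 CPM in naive cells and at 355 and 328 CPM in mTeSR day 8, a log2 fold change of 0.29 that was not called. FGF4, the ERK-activating ligand of early embryos, fell from 297, 364, 389.9 and 379.6 to 75.5 and 88.7 CPM. FAM151A fell from 216, 216, 176 and 108 to 1.09 and 0.560 CPM, with 1 naive Geltrex library lower than the other naive libraries.

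ABCG2 and VSNL1, listed as naive genes, went against the list. ABCG2, a drug efflux transporter, rose from 0.443, 0.873, 0.898 and 0.361 CPM to 121 and 123 CPM, by 185-fold (adjusted p 6.09e-26). VSNL1, a neuronal calcium sensor, rose from 1.99, 3.06, 2.47 and 3.61 CPM to 105 and 109.7 CPM, by 37.98-fold (adjusted p 1.54e-23). Both were low in all naive libraries of this experiment, on either coating.

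Surface markers of naive cells showed 3 lower and 1 higher of 6 tested. CD70 fell from 76.4, 73.6, 72.5 and 63.7 CPM to 3.26 and 5.88 CPM and F11R, a junctional adhesion molecule, from 513, 582, 594 and 608 CPM to 279.6 and 262 CPM. IL6ST, the gp130 signal transducer of LIF, stood at 86.1, 65.5, 62.8 and 57.4 CPM and 43.7 and 40.02 CPM, a log2 fold change of -0.69. SIGLEC6 had 0 counts in all 6 libraries. BST2, used elsewhere as a naive surface marker, was near the limit of detection and higher at day 8, at 0, 1.09, 0.449 and 0.541 CPM against 2.17 and 4.20 CPM.

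Shared pluripotency genes were set against the label of the cells as pluripotent, which both groups share, and none was called lower. Of 12 tested, 5 were higher. POU5F1, which encodes OCT4, stood at 560.5, 389.5, 363 and 365 CPM in naive cells and 409 and 414 CPM in mTeSR day 8, and NANOG at 946, 1163, 1105 and 1129 CPM and 998 and 1094 CPM. For both genes the groups overlapped. SOX2 stood at 271, 269, 274 and 258 CPM and 385 and 356 CPM (log2 fold change 0.47 ± 0.10), without overlap but under the 2-fold threshold.

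The 5 that rose were LIN28A, L1TD1, DPPA2, TERF1 and PODXL. LIN28A, an RNA-binding protein, rose from 218, 229, 257 and 255 to 689 and 691 CPM. L1TD1 rose from 476, 503, 547 and 572 to 1252 and 1374 CPM and DPPA2 from 25.5, 23.6, 25.1 and 36.98 to 97.5 and 79.8 CPM. TERF1, a telomere protein, rose from 241, 279, 285 and 312 to 1247 and 1202 CPM. PODXL (chromosome 7, 131500262 to 131558217), the podocalyxin that carries the TRA-1 surface antigens, rose from 20.6, 23.8, 26.7 and 25.6 CPM to 796 and 899 CPM, by 35.1-fold (adjusted p 1.45e-26). ZFP42, also called REX1, was lower by less than 2-fold, at a log2 fold change of -0.78.

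Of 8 DNA methylation genes tested, 1 was called higher and 2 lower, beside 18.2% and 8.76% over all genes, and 5 were not called. DNMT3B, a de novo methyltransferase, rose from 331, 308, 280.1 and 250.1 CPM to 938 and 1039 CPM, by 3.40-fold. TET2, an enzyme that oxidises methylcytosine, fell from 57.1, 46.1, 31.2 and 34.8 CPM to 5.43 and 5.88 CPM, by 7.28-fold, and UHRF1, which brings DNMT1 to replicating DNA, from 135, 129, 99.7 and 92.9 CPM to 37.5 and 49.5 CPM. In both of these falling genes the serum libraries were higher than the Geltrex libraries within the naive group, by less than the distance to mTeSR. DNMT1, DNMT3A and TET1 differed by log2 fold changes of 0.24, 0.10 and 0.23 and were not called.

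Primed and formative transcription factors were higher as a group, 11 of 15 tested, with a median log2 fold change of 2.86, and none were called lower. SOX11 (chromosome 2, 5692384 to 5701385), a SOX factor of the post-implantation epiblast and neural precursors, rose from 1.55, 1.75, 0.673 and 0.902 CPM to 269 and 314 CPM, by 247-fold (adjusted p 1.45e-26). SOX3 rose from 0.885, 0.655, 1.57 and 1.263 CPM to 40.4 and 43.1 CPM and SALL3, a zinc finger factor, from 6.64, 8.52, 7.63 and 9.56 CPM to 55.9 and 61.8 CPM. OTX2, which marks the formative transition, rose from 4.21, 4.80, 5.84 and 6.13 to 25.2 and 28.3 CPM, a smaller step of 5.12-fold.

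HESX1, GRHL2, MYCN and SP8 were the 4 members of this group that were not called. MYCN stood at 197, 211, 179 and 194 CPM in naive cells and at 144 and 147 CPM in mTeSR day 8. SP8 stood at 47.6, 40.2, 42.6 and 39.5 CPM and 20.6 and 29.4 CPM (log2 fold change -0.76). POU3F1, a further formative factor, was filtered out with 1 count in the naive and 9 counts in the mTeSR day 8 libraries.

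Surface and other markers of primed cells held the highest median of the lists, with 11 of 13 higher and a median log2 fold change of 7.62. THY1 (chromosome 11, 119415476 to 119424985), the CD90 glycoprotein, went from 0.221, 0, 0.224 and 0 CPM to 93.1 and 91.2 CPM, with a count ratio of 880.2, 95% interval 243 to 7283. FZD7, a Frizzled WNT receptor, rose from 0.664, 0.437, 0.224 and 0.180 CPM to 78.999 and 86.5 CPM, by 228-fold. CD24 rose from 118, 106, 129.5 and 109 CPM to 874 and 847 CPM, by 7.45-fold. LIN28B and HMGA1 were the 2 members that were not called, at log2 fold changes of -0.46 and 0.57.

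**Figure D2:**
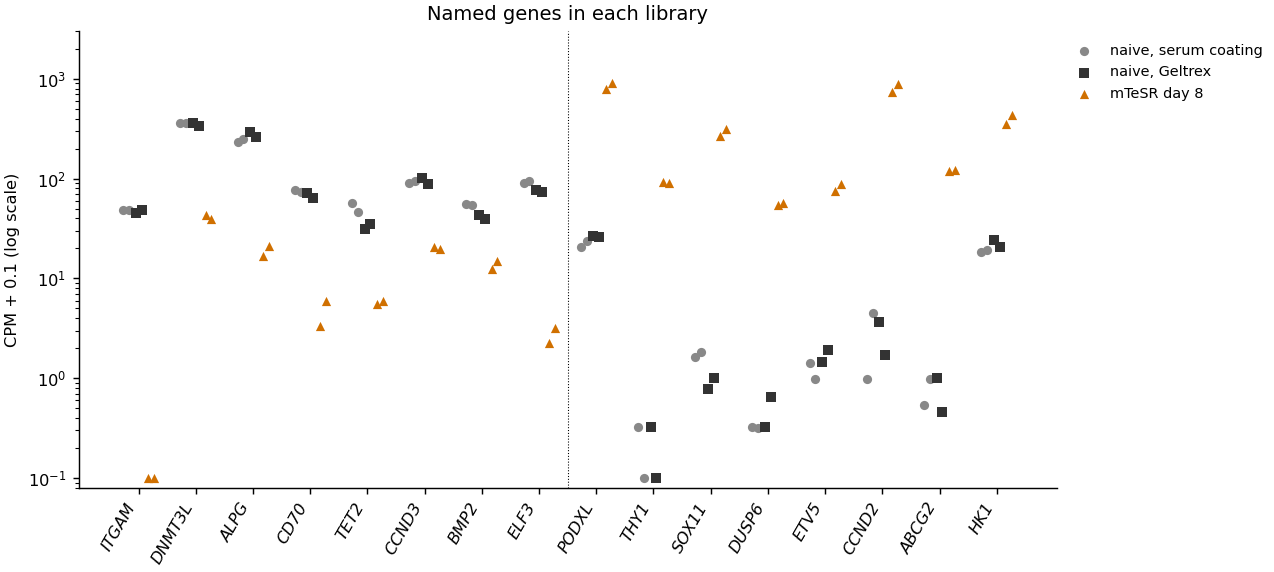
Level of 16 named genes in each of the 6 libraries, as CPM + 0.1 on a log axis, with circles for naive libraries on serum coating, squares for naive libraries on Geltrex and triangles for mTeSR day 8. The 8 genes on the left were lower in mTeSR day 8 and the 8 on the right higher, with no overlap between the groups in any of the 16.

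The naive medium blocks MEK, and most listed genes of ERK feedback and ERK induction were higher at day 8 without that inhibitor. Of the ERK feedback inhibitors, which the pathway induces to restrain itself, 8 of 9 listed were higher and SPRED3 did not pass the filter, with 2 counts in the naive and 6 in the mTeSR day 8 libraries. SPRY4, a Sprouty adaptor, was at 0 in every naive library and at 31.2 and 33.3 CPM in mTeSR day 8, at least 47.9-fold higher. The ERK phosphatase DUSP6 went from 0.221, 0.218, 0.224 and 0.541 CPM to 54.6 and 56.5 CPM, by 171-fold (adjusted p 1.22e-20). DUSP5 rose from 2.66, 3.49, 3.82 and 2.53 CPM to 132 and 151 CPM, by 45.4-fold, and DUSP4 from 0, 0.437, 0 and 0 CPM to 39.4 and 47.01 CPM (count ratio 412, 95% interval 113 to 3415). The smallest step in this list was that of SPRED2, from 7.53, 6.11, 4.49 and 5.95 to 16.02 and 18.7 CPM.

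Of 11 ERK-induced genes listed, 10 were higher and EGR2 did not pass the filter, with 1 count in the naive and 7 in the mTeSR day 8 libraries. ETV5, an ETS factor downstream of FGF, rose from 1.33, 0.873, 1.35 and 1.80 CPM to 74.9 and 89.3 CPM, by 60.6-fold (adjusted p 6.61e-24). CCND1, the cyclin D1 gene, rose from 3.76, 3.49, 6.06 and 6.49 CPM to 206 and 178 CPM, by 39.9-fold, and PHLDA1 from 8.85, 8.08, 6.96 and 7.22 CPM to 228 and 236 CPM, by 29.8-fold. The immediate early genes FOS and EGR1 rose to lower levels, FOS from 1.11, 0.873, 0.224 and 0.541 to 11.9 and 13.4 CPM and EGR1 from 0.664, 0.655, 0.449 and 0.541 to 5.43 and 6.996 CPM. MYC rose from 3.32, 3.06, 1.80 and 1.62 to 26.9 and 26.02 CPM.

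FGF ligands and receptors showed 5 higher and 1 lower of 9. The ligand FGF2, which mTeSR also supplies as protein, rose from 27.7, 27.5, 27.2 and 25.6 CPM to 268 and 272 CPM, by 10.01-fold. FGFR1, the main FGF receptor of primed cells, rose from 89.9, 76.2, 84.8 and 73.6 CPM to 472 and 537 CPM, by 6.23-fold. FGFR3 fell from 82.8, 82.8, 79.003 and 85.3 CPM to 37.2 and 39.5 CPM, by 2.15-fold. FGFR2 was not called (log2 fold change -0.22), and the call of FGFR3 was lost in 1 of 17 alternatives, with the naive libraries of both experiments (-0.97).

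In the Nodal pathway, which mTeSR feeds through its TGFβ family ligand, 4 genes were higher and 1 lower of 13 tested, beside 18.2% and 8.76% over all genes. NODAL itself stood at 154, 179, 218 and 215 CPM in naive cells and 175 and 156 CPM in mTeSR day 8, with overlap. The inhibitor LEFTY1 rose from 59.98, 65.9, 86.6 and 77.2 CPM to 169 and 167 CPM, while its neighbour LEFTY2 fell from 73.5, 98.7, 121 and 121 CPM to 51.04 and 50.9 CPM (log2 fold changes 1.23 ± 0.15 and -1.002 ± 0.20), the latter just past the threshold and not called in 9 of 17 alternative analyses. These paralogs are near-identical in sequence, and reads shared between them could be divided either way. CER1, a secreted antagonist of Nodal and BMP, was at 0 in the naive libraries and at 39.6 and 33.02 CPM, at least 53.95-fold higher.

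BMP pathway genes were higher in 9 and lower in 1 of 14 cases. Of the ligands, BMP4 rose from 10.6, 13.97, 13.2 and 12.4 CPM to 103 and 87.3 CPM and BMP7 from 1.55, 1.09, 2.24 and 1.08 CPM to 38.8 and 39.5 CPM. BMP2 fell from 55.3, 53.7, 43.1 and 39.5 CPM to 12.2 and 14.8 CPM. Among the targets, ID3, an inhibitor of basic helix-loop-helix factors, rose from 1.11, 1.31, 1.57 and 1.62 CPM to 111 and 102 CPM, by 75.2-fold, whereas ID1 stood at 83.7, 84.1, 60.6 and 58.5 CPM and 122 and 111 CPM (log2 fold change 0.72) and was not called. The intracellular inhibitor SMAD6 and the secreted antagonist NOG were also higher, at 33.7 and 43.4 CPM and 10.3 and 13.99 CPM in mTeSR day 8.

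Tankyrase inhibition in PXGL stabilises AXIN and damps WNT signalling, and 8 of 15 WNT pathway genes were higher at day 8 with 1 lower. SP5, a direct WNT target, rose from 1.55, 3.06, 0.898 and 2.53 CPM to 132 and 126 CPM, by 62.7-fold (adjusted p 1.93e-19). AXIN2, the most widely used WNT target, stood at 55.6, 41.05, 35.7 and 34.1 CPM in naive cells and 51.6 and 53.2 CPM in mTeSR day 8, and the groups overlapped. WNT5A, a ligand of the non-canonical branch, rose from 0, 0.655, 0 and 0.180 to 12.8 and 12.3 CPM. The ligand WNT3 was not called (log2 fold change -0.97). LEF1, a nuclear partner of beta-catenin, stayed near the limit of detection, at 0.814 and 0.280 CPM in mTeSR day 8. SP5 was called and AXIN2 was not, and the part of WNT signalling in these changes was not tested.

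LIF was present in the naive medium, and 4 of 7 LIF and STAT3 genes were higher without it, with none lower. SOCS3, the feedback inhibitor induced by STAT3, rose from 0.885, 0.437, 1.12 and 1.80 to 7.87 and 11.5 CPM. LIFR, the receptor, rose from 9.30, 11.1, 10.3 and 8.66 to 36.1 and 37.8 CPM. STAT3 itself stood at 23.5, 15.7, 17.5 and 14.97 CPM and 24.98 and 27.7 CPM (log2 fold change 0.56), below the 2-fold threshold.

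Cell shape and adhesion genes changed in part. The keratin gene KRT18 rose from 19.5, 18.1, 23.1 and 20.03 CPM to 380.1 and 363 CPM, by 18.5-fold (adjusted p 9.78e-27), and VIM, the vimentin gene, from 0, 0, 0 and 0.541 CPM to 67.9 and 67.4 CPM (count ratio 431, 95% interval 147 to 2096). In all, 7 of 9 intermediate filament genes were higher, and LMNA, the lamin A gene, was the 1 called lower, from 75.5, 59.4, 46.9 and 38.2 to 19.003 and 26.3 CPM, though not against naive cells on Geltrex only (log2 fold change -0.91). Of 12 epithelial adhesion genes only CDH3, the P-cadherin gene, was called, from 64.9, 60.7, 72.5 and 64.4 to 232 and 245 CPM. CDH1, the E-cadherin gene, stood at 604, 690.0, 610.0 and 617 CPM in naive cells and 403 and 434 CPM in mTeSR day 8 (log2 fold change -0.59 ± 0.12).

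The list for YAP and TEAD, factors that respond to cell spreading and to the Hippo pathway, held 8 of their targets and 4 of the factors themselves. Of these 12 genes 7, each a target, were higher, and none were lower. CYR61 rose from 11.1, 13.5, 12.1 and 12.6 CPM to 164 and 170.4 CPM and AMOTL2, an angiomotin, from 8.63, 5.68, 3.82 and 5.23 CPM to 143 and 156 CPM, by 13.5-fold and 25.97-fold. The factors YAP1, TEAD1, TEAD2 and TEAD4 were not called, with log2 fold changes from -0.10 (TEAD2) to 0.83 (TEAD1). ANKRD1, another target, was called higher from 1 count in the naive libraries together to 1.36 and 1.68 CPM in mTeSR day 8 (count ratio 28.9, 95% interval 4.21 to 1246).

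Matrix genes were higher in 11 of 18 cases. COL4A1 and COL4A2, the collagen IV chains of basement membranes, rose by 9.34-fold and 12.4-fold, to 61.6 and 76.7 CPM and 76.01 and 81.99 CPM. COL18A1 rose from 3.54, 5.46, 4.71 and 3.97 CPM to 189 and 154 CPM and FN1, the fibronectin gene, from 179, 181, 172 and 165 CPM to 559.5 and 648 CPM. ITGB1, the integrin beta 1 chain, rose from 62.6, 67.7, 85.96 and 77.2 CPM to 288 and 297 CPM, by 4.02-fold.

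Germ layer markers were higher at day 8 than in naive cells. Of 10 primitive streak and mesoderm markers listed, 7 passed the filter on low counts and were higher, 3 of them (HAND1, GSC and TBXT) from 0, 3 and 4 counts in the naive libraries together. MESP1, TBX6 and MSGN1 did not pass, with 3, 2 and 0 counts in mTeSR day 8. TBXT, the brachyury gene, rose from 0, 0, 0.224 and 0.541 CPM to 42.1 and 28.5 CPM, by 323-fold (adjusted p 6.09e-17). EOMES rose from 1.11, 0.655, 0.898 and 1.08 CPM to 41.3 and 31.9 CPM, by 37.9-fold, and LHX1 from 0.664, 0.873, 1.80 and 1.80 CPM to 42.9 and 56.5 CPM, by 41.2-fold. MIXL1 was already present in naive cells, at 9.96, 17.2, 19.98 and 20.2 CPM, and rose to 109 and 85.9 CPM.

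Endoderm and hypoblast markers were higher in 7 of 9 cases and lower in 1. FOXA2 (chromosome 20, 22580998 to 22585455), a pioneer factor of endoderm, rose from 0.221, 0.437, 0.224 and 0.361 to 21.99 and 20.1 CPM and CXCR4, a chemokine receptor used to sort definitive endoderm, from 0.664, 1.53, 0.673 and 1.44 to 43.98 and 48.4 CPM. GATA4 and GATA6 reached 11.9 and 10.6 CPM and 8.69 and 10.4 CPM. HHEX was the 1 called lower, from 6.64, 9.39, 10.5 and 9.38 to 4.34 and 4.48 CPM, a call that 8 of 17 alternatives did not keep.

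Trophectoderm and amnion markers were less uniform, with 3 higher and 1 lower of 9, beside 18.2% and 8.76% over all genes. GATA3 stood at 1.77, 3.93, 4.94 and 3.07 CPM in naive cells and 4.89 and 5.32 CPM in mTeSR day 8, with overlap, and CDX2 at 2.21, 1.31, 2.24 and 2.71 CPM and 2.71 and 2.52 CPM. The 3 that were higher were ENPEP, which reached 14.4 and 10.1 CPM, IGFBP3 and GABRP, and ISL1 was the 1 that was lower, at a log2 fold change of -1.39, or -0.77 without mTeSR replicate 2. Of 13 neural markers listed, 7 passed the filter on low counts, of which 5 were higher, CRABP1, CRABP2, DCX and PAX6 among them, and 1 lower. The 1 lower was ZIC1, a zinc finger factor, from 5.31, 4.80, 5.84 and 4.51 to 1.36 and 2.24 CPM, and the calls of DCX and PAX6 were each lost in 2 of 17 alternatives. CRABP1, a retinoic acid binding protein, rose from 3.76, 2.40, 2.69 and 2.89 CPM to 71.4 and 59.9 CPM, while PAX6 reached 1.9003 and 2.24 CPM and SOX1 had 2 counts in the naive and 0 in the mTeSR day 8 libraries.

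Of 12 fibroblast markers listed, 10 were tested and 7 were higher. COL1A2 rose from 0.443, 0.437, 1.57 and 0.361 CPM to 114 and 128 CPM and COL1A1 from 1.11, 1.31, 1.12 and 1.62 CPM to 17.6 and 19.9 CPM. DCN and LUM, which define fibroblasts more narrowly, had 2 and 0 counts in the naive libraries and 0 counts in both mTeSR day 8 libraries, and COL3A1 stood at 0.271 and 0.280 CPM. The part of contaminating or differentiating cells in the germ layer and matrix results was not tested. Summed over each list, streak markers went from 12.4 to 25.8 CPM in the naive libraries to 214 to 253 CPM in mTeSR day 8 and endoderm markers from 11.7 to 13.3 to 135 to 138 CPM. The sums for trophectoderm and amnion markers were 15.5 to 19.3 and 28.5 to 36.1 CPM, for neural markers 27.5 to 29.6 and 115 to 126 CPM, and for fibroblast markers 17.7 to 19.9 and 173 to 189 CPM.

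Glycolysis turns glucose into pyruvate and lactate, and 13 of 22 tested glycolysis genes were higher, with none lower and a median log2 fold change of 1.256. The largest of these rises was that of HK1, a hexokinase of the first step, which rose from 18.4, 19.2, 24.2 and 20.4 CPM to 354 and 431 CPM, by 19.2-fold (adjusted p 4.56e-24). The glucose transporter SLC2A3 rose from 228, 232, 266 and 235 CPM to 1661 and 1734 CPM and SLC2A1 from 61.5, 46.9, 55.9 and 54.1 CPM to 413 and 429.5 CPM, by 7.08-fold and 7.71-fold.

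At the exit, LDHA (chromosome 11, 18394560 to 18408425), the lactate dehydrogenase A chain, rose from 265, 338, 468 and 435 CPM to 1467 and 1424 CPM, by 3.92-fold (adjusted p 1.49e-13). SLC16A3, the lactate exporter MCT4, rose from 6.86, 9.17, 17.5 and 10.1 to 84.7 and 108 CPM, and PDK1, the kinase that restrains pyruvate dehydrogenase, from 14.8, 16.6, 19.98 and 15.2 to 79.5 and 59.3 CPM. Of the middle enzymes, ENO1 rose from 494, 452, 513 and 434 CPM to 1607 and 1688 CPM and PGK1 from 363, 418, 503 and 483 CPM to 1077 and 1034 CPM. TPI1, PGAM1, PFKL and LDHB were among the 9 members not called, and LDHB stood at 753, 687, 697 and 719 CPM and 703 and 708 CPM. The calls covered glucose transporters, a hexokinase and a lactate exporter but not each enzyme between.

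Hypoxia-inducible genes were higher in 6 of 8 cases, with a median log2 fold change of 2.20. BNIP3, a mitophagy receptor, rose from 126, 141, 196 and 195 CPM to 937 and 901 CPM, by 5.69-fold (adjusted p 1.26e-19). ADM, the adrenomedullin gene, rose from 2.88, 1.53, 2.02 and 2.16 to 68.1 and 74.996 CPM and P4HA1, a prolyl hydroxylase of collagen, from 101, 109, 135 and 132 CPM to 438 and 447 CPM. EGLN3 and ANKRD37, also targets of the hypoxia factors, were not called, at log2 fold changes of 0.30 and -0.62. Naive Shef6 cells are kept at reduced oxygen, and the oxygen level during differentiation is not given in the sources used here.

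The hypoxia factors bind a short core motif, most often ACGTG, and many glycolysis genes are among their known targets. The promoters of the glycolysis and hypoxia-inducible genes were searched for ACGTG on both strands, over the 250 bases before each gene's RefSeq start (GRCh38.p14). A promoter was available for 27 of the 31 listed genes, and 12 of the 27 (44.4%) held the motif, against 23.05% of the 10803 promoters of genes tested and 18.7% of all 27195 promoters in the table. The share was 7 of 16 (43.8%) in members called higher and 5 of 11 (45.5%) in the others, and over all genes called higher it was 19.5%. Of 3 further motifs searched in the same 27 promoters, TATAAA was in 5 (18.5%, against 5.57% of genes tested), CCGGAA in 6 (22.2%, against 24.6%) and GGGCGGG in 14 (51.9%, against 51.97%). CCGGAA, a motif of ETS factors, was in 3 of 12 promoters of the ERK lists (25%). The median GC content of the 27 was 68.4%, against 64.8% for the genes tested. The motif also lies within CACGTG, which other factors bind, and a match in these letters is a description and not a site. The stretches from 210 to 61 bases before the start are printed for 3 genes that rose and hold the motif clear of annotated exons, with the motif on either strand in capitals and adjoining matches run together.
LDHA, chr11:18394353-18394502, plus strand: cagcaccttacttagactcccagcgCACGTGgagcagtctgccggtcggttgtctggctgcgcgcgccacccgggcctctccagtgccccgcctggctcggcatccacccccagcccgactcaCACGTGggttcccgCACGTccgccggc
PGK1, chrX:78104038-78104187, plus strand: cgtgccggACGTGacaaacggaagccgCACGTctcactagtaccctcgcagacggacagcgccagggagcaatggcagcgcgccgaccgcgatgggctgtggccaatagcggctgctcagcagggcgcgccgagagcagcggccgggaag
BNIP3, chr10:131981984-131982133, minus strand: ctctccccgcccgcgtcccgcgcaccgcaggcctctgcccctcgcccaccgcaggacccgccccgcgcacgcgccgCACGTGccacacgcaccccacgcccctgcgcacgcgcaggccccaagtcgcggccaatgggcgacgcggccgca
LDHA held 5 matches in this stretch and PGK1 and BNIP3 2 each. HK1 and SLC16A3, with larger rises than LDHA, held none in their 250 bases.

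**Figure D3:**
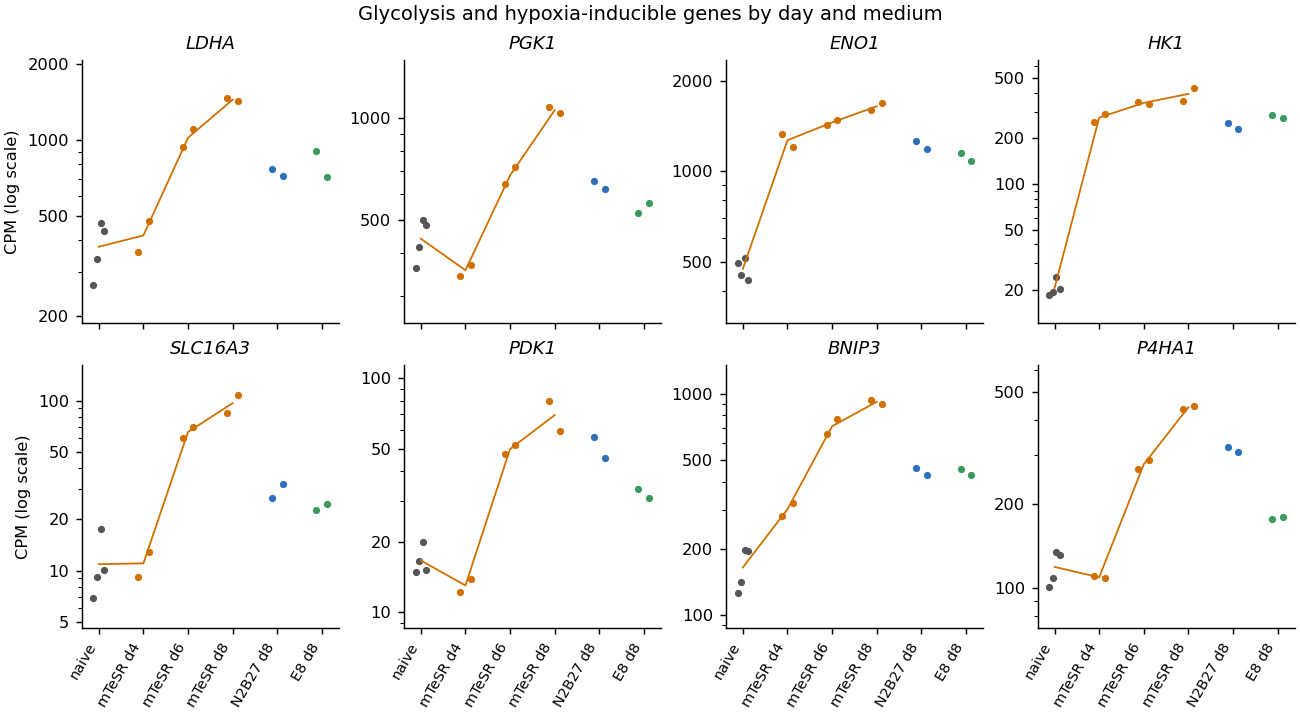
Level of 8 glycolysis and hypoxia-inducible genes as CPM on a log axis in the 4 naive libraries and in the 2 libraries each of mTeSR at days 4, 6 and 8, N2B27 at day 8 and E8 at day 8. Points are libraries and lines join the group means within mTeSR. LDHA, P4HA1, PGK1, SLC16A3 and PDK1 lay near the naive level at day 4 and were higher at day 8, whereas HK1 and ENO1 were already high at day 4.

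Few respiratory genes were called, but most had log2 fold changes below 0. Of 36 nuclear genes for complex I subunits, 31 were below 0, beside 8213 of the 16674 genes tested. Of these 36, 6 were called lower and none higher, beside 8.76% lower over all genes tested, with a median log2 fold change of -0.45. NDUFA12 fell from 107, 124, 124 and 132 CPM to 36.9 and 32.7 CPM, by 3.49-fold (adjusted p 4.31e-09), and NDUFB9 from 326, 311, 353 and 354 CPM to 157 and 138 CPM. Of the 13 mRNAs encoded in the mitochondrial genome, MT-ND4L and MT-ND6 were called lower, MT-ND6 not in 5 of 17 alternatives, and the median log2 fold change was -0.45. All 13 had log2 fold changes below 0. The mRNA for MT-CO1 stood at 1113, 950.4, 769.8 and 820.3 CPM in naive cells and 808 and 684 CPM in mTeSR day 8, and the groups overlapped.

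Metallothioneins, small proteins that bind zinc and copper, were lower in 6 of 7 cases, with a median log2 fold change of -1.71. MT1G fell from 1389, 1387, 1185 and 1105 CPM to 385 and 388 CPM, by 3.26-fold (adjusted p 3.89e-17), and MT1H from 691, 746, 641 and 647 CPM to 139 and 113 CPM, by 5.39-fold. MT1X was the member not called, at a log2 fold change of -0.93. These genes are near-identical neighbours on chromosome 16, so reads could be divided among them and the single values are uncertain.

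Antigen presentation and IFITM genes were higher in 5 of 9 cases, with none lower. HLA-B rose from 40.3, 50.2, 53.6 and 52.7 CPM to 124 and 123 CPM, and encodes a classical class I chain. Class I genes are polymorphic and alike in sequence, so the counting could divide their reads. HLA-F, a non-classical class I gene outside the list, went the opposite way, from 45.4, 50.4, 32.5 and 48.9 CPM to 1.09 and 1.68 CPM, by 31.5-fold (adjusted p 2.24e-12). IFITM3, an antiviral membrane protein expressed in pluripotent cells, rose from 109, 115, 138 and 113 CPM to 612 and 559 CPM.

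Cyclin genes moved in opposite directions. CCND2 (chromosome 12, 4269771 to 4305353), a D-type cyclin gene, rose from 0.885, 4.37, 3.59 and 1.62 CPM to 731 and 881 CPM, by 310.1-fold (adjusted p 1.89e-26), and CDK6, a partner kinase, from 5.76, 5.46, 4.26 and 4.69 CPM to 95.6 and 103 CPM. CCND3, also of the D type, fell from 90.5, 93.7, 102 and 87.7 CPM to 20.4 and 19.6 CPM and the E-type cyclin CCNE1 from 91.4, 84.7, 96.7 and 80.3 CPM to 29.3 and 27.1 CPM. CCNE2 was also called lower, though not in 6 of 17 alternatives. Of the 23 cell cycle genes tested, 2 were higher and 3 lower, beside 18.2% and 8.76% over all genes, and the other 18, replication and mitosis genes among them, were not called.

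Smaller groups were mixed, with counts to be read against the 18.2% higher and 8.76% lower over all genes tested. Of 15 imprinted genes, 6 were higher and 1 lower. NNAT, the neuronatin gene, rose from 5.31, 7.42, 10.5 and 5.41 CPM to 273 and 241 CPM and PEG10 from 36.7, 28.8, 28.5 and 20.6 CPM to 234 and 239 CPM, whereas H19 stood at 76.1, 68.3, 74.96 and 68.7 CPM and 71.4 and 81.2 CPM, with overlap. Sterol and fatty acid genes gave 5 higher and 1 lower of 21, p53 targets 5 higher of 11, and amino acid stress genes 4 higher and 1 lower of 13. The sterol and fatty acid counts were near that background. CDKN1A, the p21 gene, rose from 11.3, 9.39, 18.6 and 17.7 to 42.6 and 50.4 CPM, and TRIB3 fell from 35.4, 37.1, 38.6 and 33.7 to 11.7 and 12.6 CPM.

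**Figure D4:**
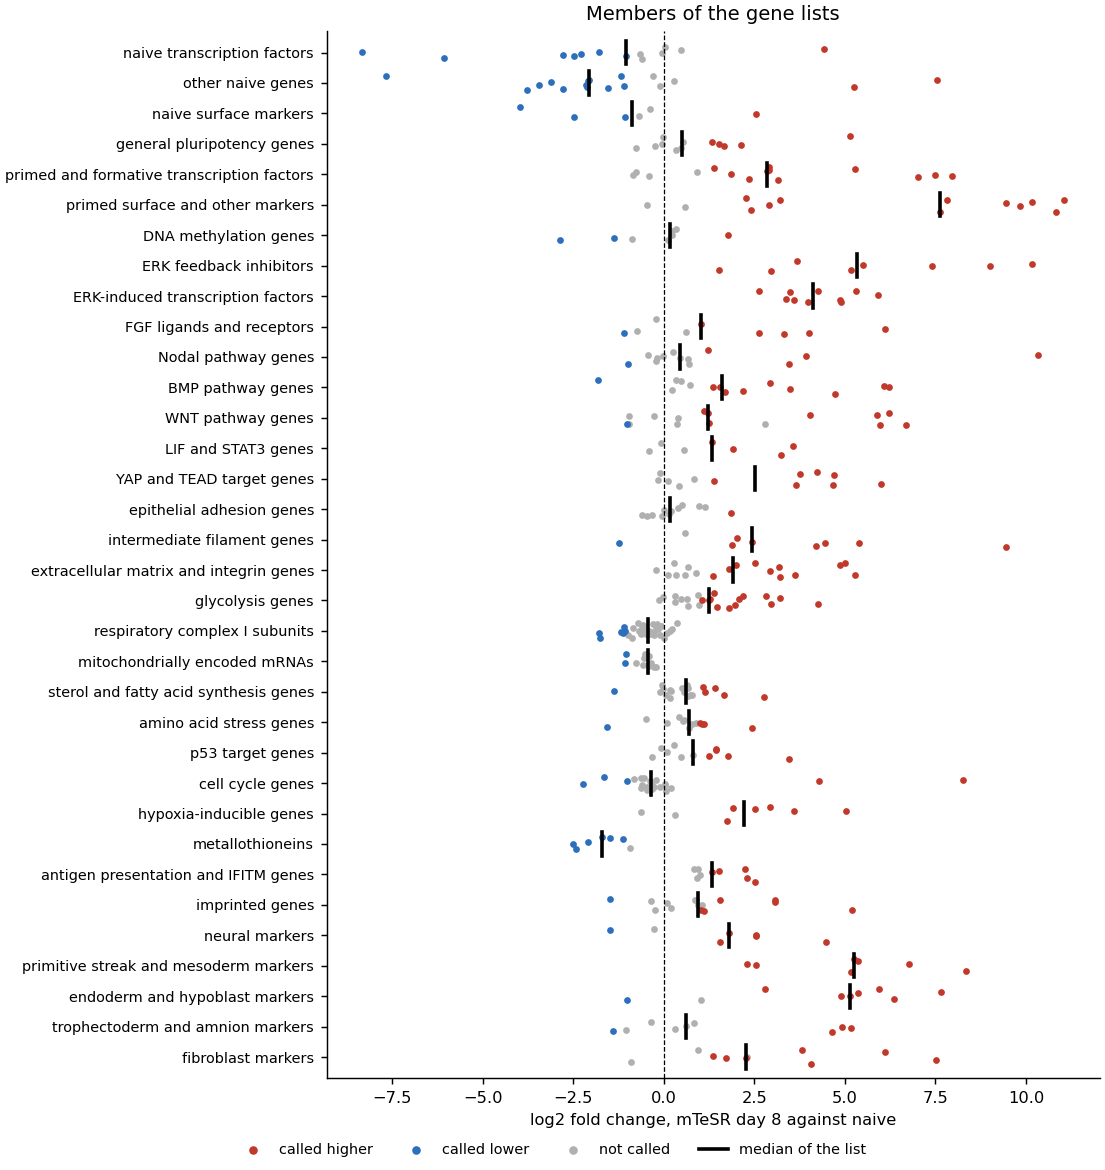
Log2 fold change of each tested member of the 34 gene lists in mTeSR day 8 against naive cells, with the list median as a black bar. Points are red for members called higher, blue for members called lower and grey for those not called, and the dashed line marks 0. The primed surface markers have the highest median and the other naive genes the lowest.

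How much of the day 8 profile was in place by day 4 was tested within mTeSR. Between these days 1542 genes (9.25%) differed, 1077 higher at day 8 (6.46%) and 465 lower (2.79%). None of the 8 ERK feedback inhibitors was among them, and SPRY4 stood at 38.1 and 26.7 CPM at day 4 and 31.2 and 33.3 CPM at day 8. THY1 stood at 91.5 and 90.7 CPM at day 4, next to its day 8 values. For SPRY4 and THY1 the values at the 2 days lay close together. DUSP4 was lower at day 8 by less than 2-fold, at 39.4 and 47.01 CPM against 72.0 and 65.4 CPM (log2 fold change -0.67 ± 0.16).

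Streak and endoderm markers came late. EOMES stood at 0.706 and 1.84 CPM at day 4, 15.04 and 14.4 CPM at day 6 and 41.3 and 31.9 CPM at day 8 (day 8 against day 4, log2 fold change 4.81 ± 0.39, adjusted p 4.84e-11). FOXA2 went from 0 and 0.921 CPM through 1.99 and 2.59 CPM to 21.99 and 20.1 CPM over these days. ERBB4 went from 0 and 0.230 CPM at day 4 to 3.76 and 5.604 CPM at day 6. In all, 6 of 7 streak and 6 of 9 endoderm markers were higher at day 8 than at day 4.

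Glycolysis genes were higher at day 8 than at day 4 in 8 of 22 cases and hypoxia-inducible genes in 5 of 8. LDHA stood at 359.5 and 476 CPM at day 4, close to the naive libraries, at 940.1 and 1102 CPM at day 6 and at 1467 and 1424 CPM at day 8 (log2 fold change day 8 against day 4 1.79 ± 0.17, adjusted p 3.03e-09). SLC16A3 went from 9.18 and 12.9 to 84.7 and 108 CPM between these days. ENO1 and HK1 had risen by day 4, to 1337 and 1203 CPM and 258 and 290.1 CPM.

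Some genes had turned by day 8. LEFTY2 was at 2.59 and 5.53 CPM at day 4, below every naive library, and back at 51.04 and 50.9 CPM at day 8. BMP2 followed the same path, with 1.41 and 0.461 CPM at day 4 and 12.2 and 14.8 CPM at day 8. GATA3 went the other way, at 17.6 and 20.7 CPM at day 4 and 4.89 and 5.32 CPM at day 8 (log2 fold change -1.91 ± 0.30, adjusted p 1.51e-05). Of the naive transcription factors, 4 of 13 were lower at day 8 than at day 4, among them TFCP2L1, at 102 and 111 CPM at day 4.

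The basal medium N2B27 was used without the inhibitors, LIF, FGF2 or TGFβ ligands, and mTeSR differed from it at day 8 in 634 genes (3.8%), 275 higher in mTeSR (1.65%) and 359 lower (2.15%). The count was 366 without mTeSR replicate 2, 421 without N2B27 replicate 1 and 418 by DESeq2. Genes higher in mTeSR included THBS2, a matricellular thrombospondin, at 38.5 and 31.3 CPM against 4.19 and 3.25 CPM in N2B27 (log2 fold change 3.24 ± 0.32, adjusted p 3.47e-08). PFKFB4, which sets a potent activator of glycolysis, stood at 38.5 and 45.9 CPM against 6.17 and 6.68 CPM, the neurofilament gene NEFM at 30.4 and 41.98 CPM against 5.07 and 3.97 CPM, and the matrix protease ADAMTS19 at 25.2 and 28.3 CPM against 5.29 and 3.61 CPM. AC022784.1 stood at 22.3 and 24.3 CPM against 2.42 and 5.42 CPM. AC068313.1, an unnamed gene, was the gene furthest higher in mTeSR by the naming rule, 117 and 52.3 CPM against 7.49 and 3.43 CPM, with the mTeSR libraries themselves far apart.

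Furthest lower in mTeSR than in N2B27 by the naming rule was ANKRD1, the YAP and TEAD target, at 1.36 and 1.68 CPM against 43.4 and 33.8 CPM (log2 fold change -4.64 ± 0.38, adjusted p 2.54e-09). BST2 stood at 2.17 and 4.20 CPM against 19.8 and 20.6 CPM. MSX2 stood at 13.6 and 13.2 CPM in mTeSR and 42.5 and 33.8 CPM in N2B27 (log2 fold change -1.51 ± 0.22, adjusted p 2.09e-05), and 5 of 14 BMP pathway genes were lower. DUSP6 was 3.62-fold lower in mTeSR, at 54.6 and 56.5 CPM against 205 and 197 CPM, the only ERK feedback inhibitor to differ. PRTG, an immunoglobulin superfamily receptor of the early embryo, stood at 6.79 and 5.04 CPM against 42.3 and 43.9 CPM, APLNR, the apelin receptor, at 5.70 and 2.80 CPM against 31.5 and 20.6 CPM, and S100A14 at 6.79 and 6.16 CPM against 33.5 and 37.8 CPM. GATA3 was at 4.89 and 5.32 CPM in mTeSR and 39.4 and 33.96 CPM in N2B27 (log2 fold change -2.84 ± 0.28), and LHX1 at 42.9 and 56.5 CPM and 151 and 118 CPM (log2 fold change -1.43 ± 0.26). Of the streak markers 3 of 7, of the endoderm markers 3 of 9 and of the trophectoderm or amnion markers 3 of 9 were lower in mTeSR. None of these was higher, and 4 of 10 fibroblast markers were lower. Over all genes tested 2.15% were lower and 1.65% higher.

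E8 is the other commercial primed medium, and mTeSR differed from it at day 8 in 885 genes (5.31%), 419 higher in mTeSR (2.51%) and 466 lower (2.79%). The count was 431 without E8 replicate 1, 472 without mTeSR replicate 2 and 450 when only the mTeSR and E8 libraries of day 8 were fitted. MIXL1 stood at 109 and 85.9 CPM in mTeSR and 12.7 and 12.5 CPM in E8 (log2 fold change 2.94 ± 0.21, adjusted p 3.62e-11), and FOXA2 at 21.99 and 20.1 CPM against 2.997 and 2.59 CPM (log2 fold change 2.89 ± 0.36). CER1 stood at 39.6 and 33.02 CPM against 2.62 and 2.59 CPM and AC068313.1 at 117 and 52.3 CPM against 11.99 and 7.06 CPM, the latter not called without mTeSR replicate 1 (log2 fold change 2.43). FOXQ1, a forkhead gene, stood at 28.5 and 30.2 CPM against 3.56 and 3.30 CPM, and ERBB4 at 52.4 and 65.8 CPM against 3.56 and 3.30 CPM. Of the streak markers 6 of 7 and of the endoderm markers 5 of 9 were higher in mTeSR, and none lower.

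WNT pathway genes were higher in mTeSR than in E8 in 7 of 15 cases. SP5 stood at 132 and 126 CPM in mTeSR and 26.04 and 16.2 CPM in E8 (log2 fold change 2.59 ± 0.23, adjusted p 2.13e-09), and AXIN2 at 51.6 and 53.2 CPM against 19.9 and 25.9 CPM (log2 fold change 1.20 ± 0.21). KLF4 was 3.18-fold lower in mTeSR than in E8, where it stood at 64.8 and 57.9 CPM. Metallothioneins were lower in mTeSR in 4 of 7 cases, with MT1E at 102 and 95.4 CPM against 274 and 333 CPM. In mTeSR 6 of 22 glycolysis and 4 of 8 hypoxia-inducible genes were higher than in E8, beside 2.51% over all genes. Against N2B27 1 of 22 and 2 of 8 were higher, beside 1.65%, and none was lower in either comparison. Summed CPM of glycolysis genes was 13080.5 to 13375 in mTeSR, 8939 to 9331 in N2B27 and 8684.5 to 9270 in E8. For hypoxia-inducible genes the sums were 1696 to 1727, 1034 to 1081.5 and 901 to 904.

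Of the 6 genes lowest in mTeSR against E8, 4 rested on 1 library. EEF1A1P5 and EEF1A1P11, processed pseudogenes of a translation factor, stood at 41.8 and 4.003 CPM and 41.96 and 7.30 CPM in the 2 E8 libraries and at 0 and 1.96 CPM and 3.80 and 3.36 CPM in mTeSR, so that E8 replicate 1 alone was high. AC022018.1 and AC011416.2 showed the same split, at 42.5 and 9.65 CPM and 46.1 and 8.71 CPM in E8. Without that library the log2 fold changes of the 4 genes ranged from -2.02 to -1.02, and none of the 4 passed the test. Reads of near-identical copies make these values uncertain. GCNT4, a glycosyltransferase, and EDN1, the endothelin 1 gene, were high in both E8 libraries, at 59.8 and 59.6 CPM and 29.6 and 21.4 CPM, against 10.3 and 5.597 CPM and 4.07 and 3.36 CPM in mTeSR. All these comparisons share the mTeSR day 8 libraries, so their results are not independent of each other.

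**Figure D5:**
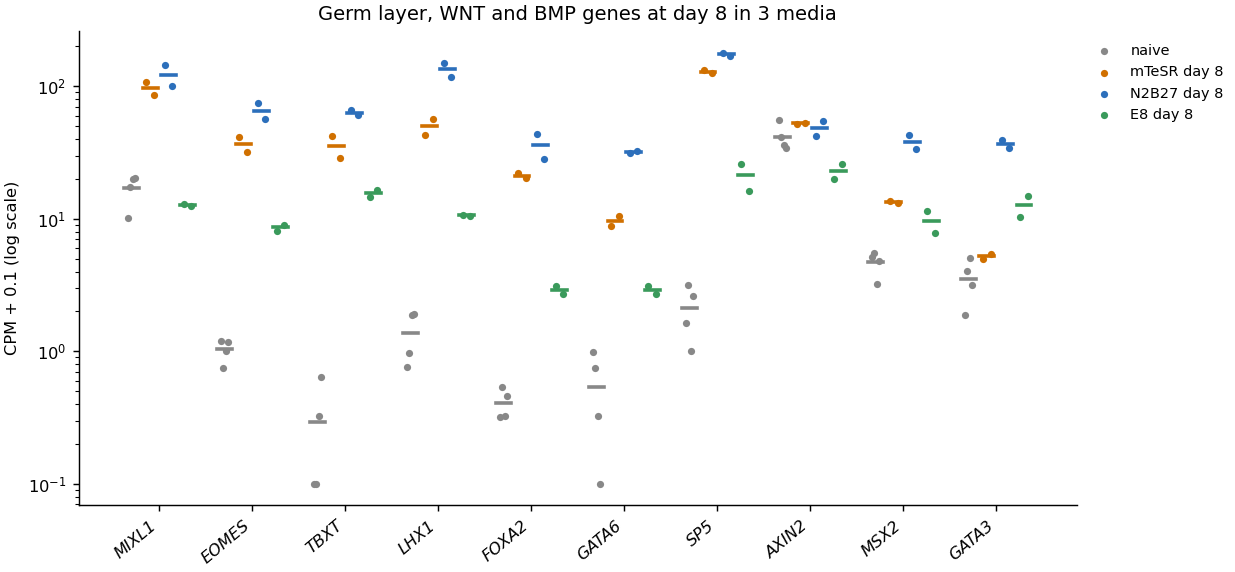
Level of 10 germ layer, WNT and BMP genes at day 8 in mTeSR, N2B27 and E8, with the naive libraries, as CPM + 0.1 on a log axis, where points are libraries and bars are group means. Streak and endoderm genes sit lowest of the day 8 groups in E8, and GATA3 and MSX2 highest in N2B27.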

How the data were processed

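Polyadenylated RNA of Shef6 cells was sequenced as QuantSeq 3′ libraries. The authors aligned reads to hg38 with STAR 2.7.10a and quantified them with Salmon 1.9.0 in nf-core/rnaseq, with FastQC 0.11.9 for quality, and the deposited table holds whole-number counts for 57133 genes. The annotation release is not given in the sources used here.

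Groups were taken from the titles. All 38 libraries in 19 groups entered 1 fit in edgeR 4.0.16 (R 4.3.3) with TMM scaling and filterByExpr, which kept 16674 genes holding 99.6% of the counts and left a biological coefficient of variation of 10.0%. The quasi-likelihood test compared mTeSR day 8 with the mean of both naive groups, N2B27 day 8, E8 day 8 and mTeSR day 4. P-values were adjusted over all genes by the Benjamini-Hochberg method, and standard errors were derived from the F statistic. Scripts were tested on simulated data. Where a group had no counts a fold was set against 3 counts in 1 library, and where it had 1 to 3 counts the ratio is given with an exact 95% interval. The 34 gene lists (457 genes, 431 tested) and the libraries were chosen with earlier results of these data known. Outside the lists, the 12 largest rises and falls against naive and the 6 highest and lowest genes against N2B27 and E8 are named, among genes whose libraries did not overlap and whose higher group averaged 20 CPM or more. Promoters are from RefSeq. Some list members are not reported here. DESeq2 1.42.0 was run as an alternative, beside other normalizations, filters, fits and naive groups and each library left out.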

Additional observations from a re-analysis of the deposited data

Results flagged for a closer look

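Of 174 named genes checked in the 4 naive libraries, 19 had a library standing apart by Dixon's test, which flags about 1 in 20 groups by chance. In 10 of the 19 the other libraries were at 0, where any count sets the flag, so that rate does not hold for them and nothing is read from it. In ADAMTS19, CCDC141, DUSP4, GCNT4 and NRK this was serum replicate 2, at 0.218, 0.437, 0.437, 0.218 and 0.437 CPM, with the others at 0. PTPRZ1 had 0.221 CPM in serum replicate 1, ANKRD1 0.224 CPM and ERBB4 0.673 CPM in Geltrex replicate 1, and NTS 0.180 CPM and VIM 0.541 CPM in Geltrex replicate 2, again with the others at 0. DUSP6 reached 0.541 CPM in Geltrex replicate 2 against 0.218 to 0.224 CPM, COL1A2 1.57 CPM in Geltrex replicate 1 against 0.361 to 0.443 CPM, and AC011416.2 5.59 CPM in Geltrex replicate 2 against 1.33 to 1.57 CPM in the others. At higher levels, CDH1 was highest in serum replicate 2 (690.0 CPM), SLC2A3 and TEAD1 were highest in Geltrex replicate 1 (266 and 35.2 CPM), and ITGAM was lowest there (45.1 CPM). In Geltrex replicate 2, DPPA2 was highest (36.98 CPM) and NEFM lowest (0.722 CPM).

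The change from naive cells differed between mTeSR and N2B27 at day 8 in 634 genes by the test of the difference itself. On the log2 scale, mTeSR minus N2B27, AC068313.1 differed by 3.98, THBS2 by 3.24, NEFM by 3.004, PFKFB4 by 2.71, ADAMTS19 by 2.59 and AC022784.1 by 2.52. ANKRD1 differed by -4.64, BST2 by -2.66, PRTG by -2.86, GATA3 by -2.84, APLNR by -2.60, S100A14 by -2.46, DUSP6 by -1.85, MSX2 by -1.51 and LHX1 by -1.43.

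Against E8 the change differed in 885 genes. ERBB4 differed by 4.09, CER1 by 3.79, AC068313.1 by 3.12, FOXQ1 by 3.08, MIXL1 by 2.94, FOXA2 by 2.89, SP5 by 2.59 and AXIN2 by 1.20. EEF1A1P5 differed by -4.56, AC022018.1 by -3.33, AC011416.2 by -2.95, GCNT4 by -2.90, EEF1A1P11 by -2.80, EDN1 by -2.77, KLF4 by -1.67 and MT1E by -1.62.

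Between day 8 and day 4 in mTeSR 1542 genes differed. FOXA2 differed by 5.42, EOMES by 4.81, BMP2 by 3.82, LEFTY2 by 3.64, SLC16A3 by 3.12 and LDHA by 1.79, while GATA3 differed by -1.91 and TFCP2L1 by -1.05. These comparisons share the mTeSR day 8 libraries.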

How the results depend on the processing

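Against naive cells the count of 4491 calls ranged from 4040 to 5014 over the alternatives, with no call in the opposite direction. Calls ranged from 4040 to 4484 with 1 library left out (2734 to 3021 higher, 1306 to 1463 lower), and the list members called, 233 in the main analysis, from 228 to 233. Of 171 named genes, 154 kept direction and side of the threshold throughout, and DNMT3A, not called, turned to -0.00266 without mTeSR replicate 2 (0.203 without replicate 1). Leaving out mTeSR replicate 1 took the call from PRDM14 (-0.88), CCNE2 (-1.002) and HHEX (-0.99), and leaving out mTeSR replicate 2 took it from ISL1 (-0.77), PAX6 (1.44), DCX (1.29), MT-ND6 (-0.95), CCNE2 (-1.05) and HHEX (-1.03) and gave one to SP8 (-1.04). Without Geltrex replicate 1, CCNE2 (-0.96) and HHEX (-0.97) were not called, without Geltrex replicate 2, MT-ND6 (-0.88), PAX6 (1.24) and PRDM14 (-0.96), without serum replicate 1, MT-ND6 (-0.99), and without serum replicate 2, HHEX (-0.88), LEFTY2 (-0.89) and PRDM14 (-0.999). With the naive libraries of the second experiment added, whose titles say day 0 and whose library names say day 4, CDKN1A (0.97), FGFR3 (-0.97), CCNE2 (-0.63), HHEX (-0.83), LEFTY2 (-0.57), MT-ND6 (-0.53) and PRDM14 (-0.81) lost their calls and ID1 (1.297) and TEAD1 (1.17) gained them. Against naive cells on Geltrex only, LMNA (-0.91), MT-ND6 (-0.69) and DCX (1.67, adjusted p 0.0516 by edgeR) were not called. MT1X, SP8 and WNT3 passed the threshold in 1, 1 and 4 alternatives.

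The media comparisons were less stable. Against N2B27, DESeq2 called 418 genes, and leaving out 1 library gave 366 to 472 calls, with 421 without N2B27 replicate 1 and 366 without mTeSR replicate 2. Against E8, a fit to the compared libraries alone called 450 genes, and leaving out 1 library gave 431 to 1169, with 431 without E8 replicate 1 and 472 without mTeSR replicate 2. Day 8 against day 4 gave 1073 to 1430, and TFCP2L1 lost its call without mTeSR day 8 replicate 1 (-0.91) or day 4 replicate 2 (-0.99). Without E8 replicate 1, AC011416.2 (-1.28), AC022018.1 (-1.87), EEF1A1P11 (-1.02) and EEF1A1P5 (-2.02) were not called against E8, nor was AC068313.1 (2.43) without mTeSR replicate 1. The naive coatings differed in 8 genes, in 1 when fitted alone, in 106 with no filter and in 0 to 146 with 1 library left out, with 2355 genes at an unadjusted p under 0.05. It was 146 without serum replicate 2, 1 without Geltrex replicate 1 and 0 without either other library. DESeq2 called 11. The cause of these moves was not tested. With 1 library left out, the lone library is assumed to vary like the other groups.

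Replicate numbers are shared between groups but pair nothing in the labels, and the differences between replicates 1 and 2 correlated across genes at -0.04 and -0.06 between mTeSR day 8 and the serum and Geltrex groups, 0.11 and 0.10 with N2B27 and E8 at day 8, -0.01 with day 4 and 0.17 between the naive groups. Over the other pairs of these groups the values ran from -0.25 to 0.37. With the replicate block 4474 genes were called against naive, 621 against N2B27, 859 against E8, 1525 against day 4 and 5 between coatings. Genes below 0.541 to 0.840 CPM, the worth of 3 counts, were at the limit of depth, and 2 libraries limit every value in mTeSR.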

Other observations

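Gene families only in part covered by the lists, chosen after their values were seen, also moved. Of 20 tested genes with KRT and a number as symbol 15 were called higher, and of 32 with COL and a number 19 were higher and 2 lower, with a median log2 fold change of 2.72. Of 34 with HIST and a number, the older histone symbols, 8 were called lower and 1 higher. These shares stand beside 18.2% higher and 8.76% lower over all genes tested.

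By chromosome, 166 of 538 tested X-linked genes (30.9%) were called higher and 27 lower, with a median log2 fold change of 0.36. The next highest share was 25.3% on chromosome 18, and the lowest of the autosomes was 11.5% on chromosome 19. Positions and gene types were available only for the 14428 of 16674 tested genes whose symbols matched the annotation. Among the matched processed pseudogenes, whose reads may belong to near-identical parent genes, 23 of 714 (3.22%) were higher and 55 (7.70%) lower. No test was made of these shares, since genes are not replicates.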
